A study of Mus musculus with 672 samples.

Results

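Acinar cells of the mouse pancreas at embryonic day E15.25 were chosen by their expression from 3 plates of sorted single cells. A cell entered the gate with Cpa1 at 2000 CPM or more (a gene's reads scaled to the same total of gene reads in every cell), Ptf1a or Rbpjl at 30 CPM or more, Col3a1 under 300 CPM and Neurod1 under 30 CPM. The gate held 90 of the 261 E15.25 cells kept for analysis (34.5%, exact 95% interval 28.7 to 40.6%), and the whole series holds 601 kept cells of 672 wells. All cells came from embryonic pancreas of the C57BL/6 strain, with no genotype or treatment named. They were sorted 1 per well into 96-well plates after antibody staining and read by a full-length method (Smart-seq2 with Nextera XT). The E15.25 plates held cells from the tip of bud 1 (tip 1), the tip of bud 2 (tip 2) and the trunk of bud 2 (trunk 2). The 4 E13.25 plates held cells of pancreas 1 to 4 and gave 36 cells under the same gate. The labels state neither that plates came from separate embryos nor what the antibodies were, tip 2 and trunk 2 share a bud number, and cells of pancreas 4 are titled with a mouse number that pancreas 1 to 3 lack. The p-values below therefore measure how far plates vary, a spread that can be technical.

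Acinar cells make the digestive enzymes of the pancreas, store them as inactive precursors in zymogen granules and release them into the ducts when hormones or nerves signal. In the embryo they arise at the tips of the branching epithelium, whereas the trunk gives rise to duct and endocrine cells. The enzyme genes are switched on by PTF1, a complex in which the basic helix-loop-helix factor Ptf1a pairs with an E protein and binds Rbpj early and its pancreas-restricted relative Rbpjl later. Bhlha15 (Mist1) shapes the secretory machinery of the maturing cell.

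Each well gave a distinct count profile, with 601 profiles for the 601 kept cells. Acinar gate cells were 40 of 87 kept cells in tip 1 (46%, 35.2 to 57%), 24 of 85 in tip 2 (28.2%, 19 to 39%) and 26 of 89 in trunk 2 (29.2%, 20.1 to 39.8%). The E13.25 plates gave 7, 5, 14 and 10 cells, from 6.25 to 16.3% of their kept cells. A sort precedes these shares, so they are shares of sorted cells. The 90 cells had between 127481 and 6073430 reads on genes (median 945905.5) and a median of 9352.5 genes with a read. Gate cells of E13.25 were deeper, with plate medians from 1230628 to 2922027 reads. Mitochondrially encoded genes took a median of 6.31, 7.06 and 7.34% of reads in the E15.25 gate cells of tip 1, tip 2 and trunk 2 and 2.88 to 4.78% in those of the E13.25 plates. The share of reads not aligned had a median of 45.3 to 50.1% over the kept cells of the E15.25 plates, 47.2% in E13.25 plate 4 and 27.7 to 32.5% in E13.25 plates 1 to 3. The part of these differences in the age results was not tested beyond the comparison among poorly aligned plates given below.

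The lowest Cpa1 inside it was 2335 CPM and the highest below the threshold was 1934 CPM. For Col3a1 the highest values inside were 298, 281 and 281 CPM, close under the limit, and the nearest outside were 497 and 521 CPM. For Neurod1 they were 23.5 CPM inside and 67.5 CPM outside, and the lowest member had 69 CPM of its higher transcription factor. Of 98 E15.25 cells with Cpa1 at the threshold, none lacked both transcription factors, 7 were left out for Col3a1 and 4 for Neurod1, where a cell can fail both. Both Ptf1a and Rbpjl reached 30 CPM in 89 of the 90 cells and in 25 of the 36 E13.25 gate cells, the other 11 of which had Rbpjl alone. Markers outside the gate went with the acinar name, though some were shared with other E15.25 classes. The classes were mesenchymal gate cells (Col3a1 at 300 CPM or more), Spp1-high cells (Spp1 at 1000 CPM or more) and Neurod1 gate cells. Cela1 (elastase 1) was at 100 CPM or more in 90 cells, against 12 of 82, 3 of 45 and 1 of 21 in these classes. Pnliprp1 (a pancreatic lipase-related protein) was at 1000 CPM or more in 89, against 27, 15 and 5. Bhlha15 was at 30 CPM or more in 83, against 12, 3 and 5. Epcam, a marker of epithelium, was at 30 CPM or more in all 90, and in 35, 43 and 21 of the other classes. Ptprc (leukocytes), Pecam1 (endothelium) and Wt1 (mesothelium) reached 30 CPM in 0 of the 90 cells, where a count of 0 (3 counts of the total) allows a share of up to 3.33%. In the 82 mesenchymal gate cells Ptprc also reached 30 CPM in 0, Pecam1 in 1 and Wt1 in 21. Hba-a1 (alpha globin) reached 30 CPM in 46 of the 90 cells, and in 34 of 82, 18 of 45 and 6 of 21 of the other classes.

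The letters that PTF1 reads are an E-box (CANNTG, here also in the form CACCTG) and the Rbpj-type core TGGGAA, and promoters of acinar genes were searched for them. Promoters of 5 genes are printed from RefSeq (GRCm38.p6, 250 bases before to 50 after the gene start, 5′ to 3′ on the gene's strand), with matches to CACCTG or TGGGAA on either strand in capitals. Rbpjl lies at chr2:164402944-164403243 (+) and Bhlha15 at chr5:144190036-144190335 (+). Prss1 (trypsinogen) lies at chr6:41458680-41458979 (+), Cel (bile salt-dependent lipase) at chr2:28563354-28563653 (-) and Cela2a (elastase 2A) at chr4:141825956-141826255 (-). They were chosen after the matches were seen, to show 2 of the regulators whose promoter holds CACCTG and 1 gene each of the trypsinogen, lipase and elastase groups.
Rbpjl: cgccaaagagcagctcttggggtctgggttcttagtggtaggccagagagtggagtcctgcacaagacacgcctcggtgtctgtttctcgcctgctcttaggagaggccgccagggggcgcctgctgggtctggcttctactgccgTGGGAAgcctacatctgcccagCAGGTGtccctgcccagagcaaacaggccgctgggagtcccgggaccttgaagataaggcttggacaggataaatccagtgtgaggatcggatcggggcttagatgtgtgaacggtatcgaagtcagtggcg
Bhlha15: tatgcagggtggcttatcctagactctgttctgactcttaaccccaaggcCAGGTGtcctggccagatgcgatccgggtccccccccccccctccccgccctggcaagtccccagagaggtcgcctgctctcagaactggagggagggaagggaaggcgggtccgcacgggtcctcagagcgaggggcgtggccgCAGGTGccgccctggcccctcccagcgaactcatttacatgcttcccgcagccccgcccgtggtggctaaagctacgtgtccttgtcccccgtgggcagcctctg
Prss1: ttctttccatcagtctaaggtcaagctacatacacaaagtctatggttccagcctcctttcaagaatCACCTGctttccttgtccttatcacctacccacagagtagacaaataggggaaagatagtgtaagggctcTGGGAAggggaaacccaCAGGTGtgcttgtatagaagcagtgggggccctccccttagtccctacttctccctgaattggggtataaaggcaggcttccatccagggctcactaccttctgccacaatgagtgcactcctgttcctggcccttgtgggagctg
Cel: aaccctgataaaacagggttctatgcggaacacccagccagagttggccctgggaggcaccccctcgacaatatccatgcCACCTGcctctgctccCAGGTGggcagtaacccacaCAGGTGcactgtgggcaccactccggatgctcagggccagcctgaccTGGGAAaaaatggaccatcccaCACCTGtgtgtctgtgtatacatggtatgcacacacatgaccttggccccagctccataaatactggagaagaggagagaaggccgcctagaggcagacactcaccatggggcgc
Cela2a: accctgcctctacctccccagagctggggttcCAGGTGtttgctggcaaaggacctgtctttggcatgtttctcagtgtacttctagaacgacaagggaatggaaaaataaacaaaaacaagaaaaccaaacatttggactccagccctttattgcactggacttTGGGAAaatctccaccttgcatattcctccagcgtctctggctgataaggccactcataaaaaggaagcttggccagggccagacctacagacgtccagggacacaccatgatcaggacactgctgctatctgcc
Counted from the gene start, Rbpjl held TGGGAA at position -104 and CAGGTG, the reverse complement of CACCTG, at -82, with a further E-box (CATCTG) at -93. Prss1 held TGGGAA at -113 and CAGGTG at -96, and Cel held TGGGAA at -87 with 4 copies of CACCTG on either strand, the nearest at -65. Bhlha15 held 2 copies of CACCTG, at -200 and -55, and no TGGGAA in this window. CACCTG was present in 18 of 33 promoters of 31 digestive enzyme genes (54.5%) and in 20.2% of all 32851 mouse promoters of the same length. TGGGAA was present in 16 of the 33 (48.5%) against 25.6% of all, and CANNTG in 29 (87.9%) against 72.3%. Both TGGGAA and CANNTG were present in 14 of the 33 (42.4%), in 3 of 19 promoters of acinar transcription factors (15.8%) and in 6227 of all 32851. CACCTG was present in 6 of the 19 (31.6%), and the Ptf1a promoter held none of the E-box forms in this window. Since CACCTG is a form of CANNTG, these counts overlap, and near-identical trypsinogen and amylase copies share promoter sequence. In 41 promoters of genes for endoplasmic reticulum (ER) folding and translocation, CACCTG was present in 9 and TGGGAA in 13 (31.7%). A match is a description of the letters and not a binding site.

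The acinar gate cells were set against the other 171 kept E15.25 cells within each plate, as a description with no test, because the gate used expression in these same cells. The others comprised 82 cells with Col3a1 at 300 CPM or more (mesenchymal gate), 45 with Spp1 at 1000 CPM or more (Spp1-high), 21 in the Neurod1 gate and 23 remaining. With 5 CPM added to each level, 127 of 12088 genes (1.05%) were at least 4-fold higher in the acinar gate in each of the 3 plates and 361 (2.99%) at least 4-fold lower, and the median log2 ratio over all genes was -0.25. Digestive enzymes were among the higher genes: 6 of 7 measured carboxypeptidase and lipase genes, 8 of 9 trypsinogens, 4 of 6 chymotrypsinogens and elastases, and 7 of 7 amylase and nuclease genes. The first list includes Cpa1, which the gate required to be high. The median log2 ratios of these 4 lists were 5.17, 4.89, 4.58 and 4.17.

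Ctrb1 (chymotrypsinogen B) stood at 67135, 56196 and 56261 CPM in the acinar gate cells of tip 1, tip 2 and trunk 2 and at 725, 3024 and 1106 CPM in the other cells. Pnliprp1 stood at 51582, 49845 and 45130 CPM against 648, 2491 and 991 CPM. Each plate's gate cells lay far above each plate's other cells for both genes, and the other cells of tip 2 had the highest levels of the 3 for both. Single other cells had up to 6.47% of reads on enzyme genes in tip 1, 21.6% in tip 2 and 14.7% in trunk 2. Per kilobase of exon, Ctrb1 was at 68182 CPM, Clps (colipase) at 26465 CPM, Pnliprp1 at 21976 CPM and Cpa1 (carboxypeptidase A1) at 9514 CPM, means over the 3 plates. Enzyme genes took between 1.47 and 39.7% of the reads of single gate cells (median 14.9%).

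Enzyme reads also appeared at a low level in mesenchymal cells. Over 22 enzyme genes, the level in mesenchymal gate cells of the same plate had a median of 1.12% of the acinar level in tip 1 (range 0.952 to 1.58%), 1.81% in tip 2 (1.28 to 4.36%) and 1.37% in trunk 2 (1.14 to 3.31%). These are levels of summed cells. In single mesenchymal gate cells enzyme genes took a median of 0.261, 0.307 and 0.204% of reads and at most 2.09, 15.9 and 3.5%. The 7 cells with Cpa1 at its threshold that were left out for Col3a1 are among the mesenchymal gate cells. The source of these reads was not tested, and no expression is read from them in the mesenchymal cells. In the opposite direction, Col1a1 (collagen I) was at 16.6, 34.6 and 24.8 CPM in the acinar gate cells against 2177, 1561 and 1733 CPM in the others, and Hbb-bs (beta globin) at 212, 1058 and 182 CPM against 25625, 54031 and 9992 CPM. Of the lists of other cell types, 18 of 21 mesenchyme genes, 13 of 30 endocrine genes, 5 of 10 erythroid genes and 4 of 23 trunk and duct genes (Spp1, Anxa2, Dcdc2a and Glis3) were lower. The mesenchyme and endocrine counts include Col3a1 and Neurod1, which the gate required to be low. C1qa, a complement gene listed for leukocytes, went the other way, at 74.6, 54 and 46.5 CPM against 2.38, 7.15 and 4.05 CPM, in cells where Ptprc did not reach 30 CPM.

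**Figure D1:**
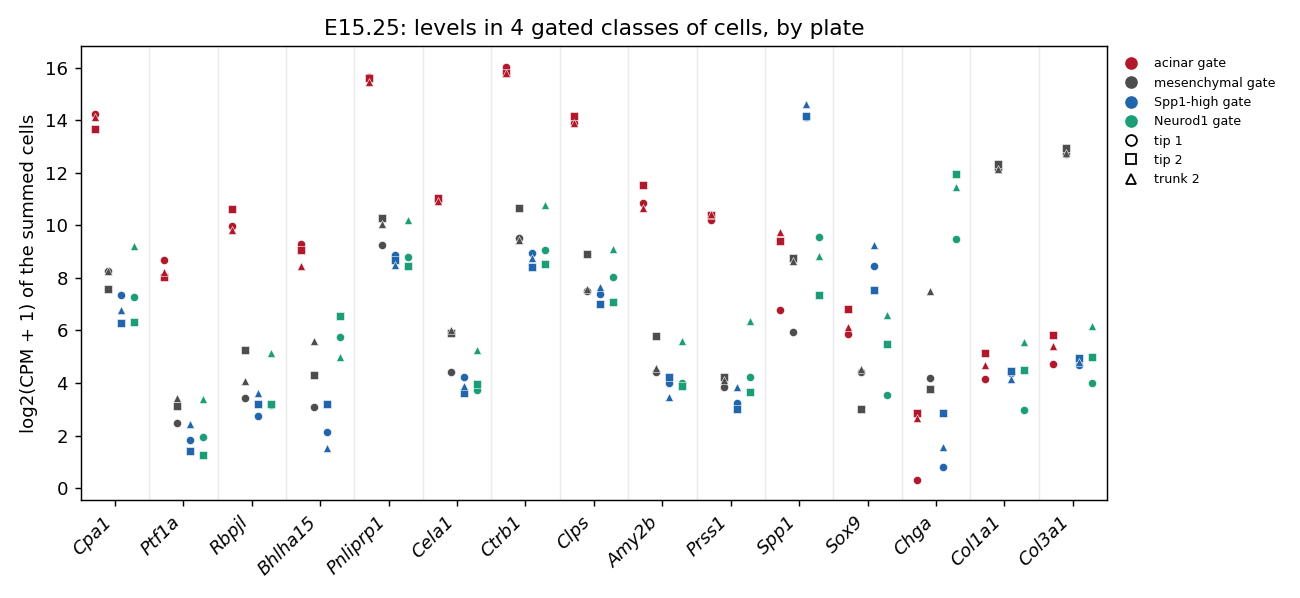
Levels of 15 genes, as log2(CPM + 1) of summed reads, in the acinar, mesenchymal, Spp1-high and Neurod1 gates of E15.25. Each point is 1 plate. Ctrb1 and Pnliprp1 lie highest in the acinar gate on all 3 plates and are above 0 in the mesenchymal gate as well.

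As a list, regulators of the acinar fate had a smaller median ratio than the enzyme lists. Of 19 such genes 12 were above 0, beside 4464 of all 12088 genes. Among 19 acinar transcription factors, 7 passed 4-fold in each plate (Ptf1a, Rbpjl, Bhlha15, Gata4, Spdef, Mecom and Nr0b2), with a list median of 1.94. The count and the median include Ptf1a and Rbpjl, on which the gate selected, so the levels of these genes are no support for it. Rbpjl was at 1013, 1581 and 893 CPM and Bhlha15 at 632, 534 and 349 CPM, against at most 81.6 and 30.1 CPM in the other cells of any plate. Ptf1a was at 412, 259 and 300 CPM against 5.47, 21.9 and 13.5 CPM. Gata4, a zinc finger factor of early pancreas, reached 30 CPM in 66 of the 90 cells. Nr0b2, a nuclear receptor co-repressor, was at 70.9, 48.3 and 86 CPM. Nr5a2, a nuclear receptor that acts with PTF1, was at 30 CPM or more in 73 of the 90 cells.

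Secretory and metabolic genes followed. In the granule list 6 of 12 passed, among them Clps, the trypsin inhibitor Spink1, the granule protein Sycn and Reg1. Cckar, the receptor through which cholecystokinin stimulates acinar secretion, was at 800, 1035 and 924 CPM in the gate cells and a mean of 36.5 CPM in the others. Rab3d and Rab26, small GTPases of zymogen granules, passed, but no other gene of the 16 for exocytosis was higher, and Sytl4 was lower. In amino acid and creatine metabolism 6 of 20 passed (Gatm, Gamt, Gnmt, Asns, Mat1a and Cbs). In the ER list only Pdia2, Edem1 and Edem2 of 45 passed, with a median of 0.86. Of the 45 genes 40 were above 0, beside 4464 of 12088 over all genes. None of 22 Golgi genes, 37 S phase genes or 50 G2/M genes passed in either direction. Gene reads per read of the added ERCC spike-in RNA had plate medians in the gate cells of 7.22, 7.05 and 6.63 against 4.1, 3.61 and 4.42 in mesenchymal gate cells. Spp1-high cells lay closer, at 6.81, 5.43 and 5.79, and Neurod1 gate cells had 6.01, 5.92 and 4.34.

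Progenitor and duct genes varied among the 90 cells. Spp1 (osteopontin, a duct and trunk gene) reached 1000 CPM in 14 of them, 1 in tip 1, 5 in tip 2 and 8 in trunk 2. Sox9, a factor of the progenitor and duct, reached 100 CPM in 29, and Pdx1 and Nkx6-1, factors of early pancreas, reached 30 CPM in 29 and 15. In the 36 gate cells of E13.25 the corresponding counts were 12, 31, 32 and 27. Ins2 (insulin) reached 30 CPM in 22 of the 90, 8 in tip 1, 0 in tip 2 and 14 in trunk 2, and in 17 of the 82 mesenchymal gate cells. Neurog3, the factor of endocrine progenitors, reached 30 CPM in 1 of the 90.

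Cells of the gate also differed in their enzyme levels. A score of late enzymes took trypsinogens, chymotrypsinogens, elastases, amylases and nucleases. A score of early enzymes took carboxypeptidases and lipases without Cpa1. Both were computed per cell as the mean log2(CPM + 1), after every cell was thinned to 100000 reads. The names early and late are labels and were not tested. Ctrb1 and Cela1, of the late groups, were already present at E13.25, and Cpb1, of the early group, was near the floor there on most plates. Late enzymes ran from 2.16 to 7.21 (median 5.20) in the 90 cells and from 0.25 to 2.72 (median 1.05) in the E13.25 gate cells, while mesenchymal gate cells of E15.25 had a median of 1.29. Early enzymes ran from 4.99 to 9.87 (median 7.79) at E15.25 and from 2.35 to 7.10 (median 5.82) at E13.25. The ages overlapped between 2.16 and 2.72 for late enzymes and between 4.99 and 7.10 for early enzymes. Within plates, the scores went together with Spearman's rho of 0.50 in tip 1 (n = 40), 0.80 in tip 2 (n = 24) and 0.60 in trunk 2 (n = 26). Late enzymes also went with the ER list, at 0.61, 0.61 and 0.23, and against the S phase list, at -0.44, -0.22 and -0.36. Before thinning the last 3 values were -0.44, -0.26 and -0.25. Late enzymes followed the reads per cell at 0.36, 0.42 and 0.31 before thinning and still at 0.39, 0.40 and 0.21 after it. The ER list did so at 0.38, 0.57 and 0.16 after thinning. Cells share library and depth within a plate, and shares of reads on enzymes lower those on all other genes, so these are descriptions.

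**Figure D2:**
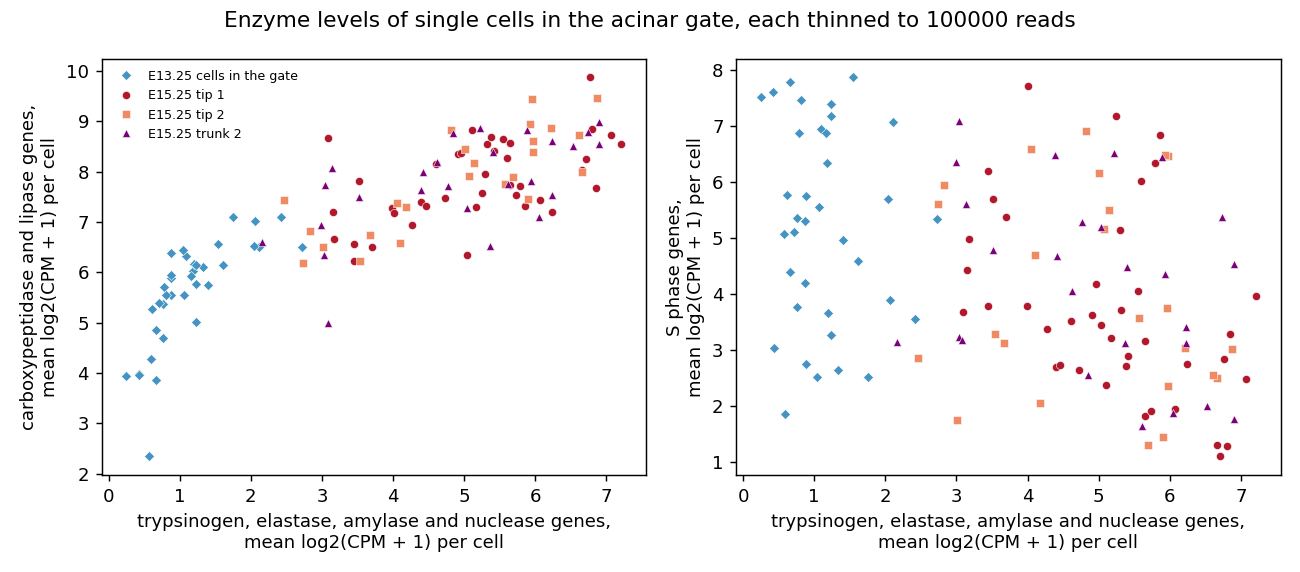
Late enzyme score of single gate cells against the early enzyme score and against the S phase score, each the mean log2(CPM + 1) after thinning to 100000 reads, with points coloured by plate. E13.25 cells lie at or below 2.72 for late enzymes and E15.25 cells at or above 2.16.

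Cell cycle genes did not all point one way. Both Mki67 and Top2a, which are transcribed in cycling cells, were at 30 CPM or more in 50 of 90 (55.6%, 44.7 to 66%), against 29 of 82 mesenchymal gate cells (35.4%), 18 of 45 Spp1-high cells (40%), 4 of 21 Neurod1 gate cells (19%) and 9 of 36 E13.25 gate cells (25%). By plate the acinar share was 47.5, 62.5 and 61.5% in tip 1, tip 2 and trunk 2, and the mesenchymal share was 20, 42.9 and 41.4%. After thinning to 100000 reads, at least 1 read of both was present in 75.6% of the 90 cells, 58.5% of the mesenchymal gate, 66.7% of the Spp1-high, 38.1% of the Neurod1 gate and 38.9% of the E13.25 gate cells. The thinned S phase score ran otherwise, with a median of 3.61 in the 90 cells, 2.92 in mesenchymal, 4.26 in Spp1-high and 5.32 in E13.25 gate cells. On the plain CPM scale 8 of 38 S phase genes were higher at E15.25 in the gate, beside 4488 of all 14646 genes. In the age test below 17 of the 38 had a positive estimate, beside 6884 of all 14646, and none of the 38 was called.

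Age was compared within the gate, which was set alike at both ages. Reads of the gate cells were summed per plate and the 3 E15.25 sums were tested against the 4 E13.25 sums with edgeR's quasi-likelihood test and Benjamini-Hochberg adjustment. Of 14646 genes, 144 were higher at E15.25 (0.983%) and 80 lower (0.546%), with a median log2 change of -0.07 over all genes. On the plain CPM scale with 5 CPM added that median was -0.30, so falls read from CPM are to be set against it. Digestive enzymes were among the genes that rose. Calls were made for 4 of 10 trypsinogens, 6 of 8 amylase and nuclease genes, 3 of 9 carboxypeptidases and lipases and 1 of 8 chymotrypsinogens and elastases, with median log2 changes of 7.14, 7.74, 2.32 and 3.83 and none lower. All measured genes of these lists (10, 8, 9 and 8) had a positive estimate, beside 6884 of all 14646 genes. Later counts of positive estimates are to be set against that share.

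The largest single rises among the enzymes were in trypsinogens. Try10 was at 981, 692 and 1131 CPM in tip 1, tip 2 and trunk 2 and at 0.359, 0.247, 0.186 and 0.182 CPM in E13.25 plates 1 to 4, a log2 change of 12.38 ± 0.359 (SE, adjusted p = 7.53e-06). Prss1 was at 1189, 1336 and 1386 CPM against 0.575, 0, 0.0928 and 1.28 CPM (11.88 ± 0.992, adjusted p = 0.00615). Prss3 was at 212, 191 and 515 CPM and had 0 reads in the E13.25 gate cells, at least 8323-fold higher against a floor of 3 reads over that group (adjusted p = 0.0076). Every E15.25 sum lay above every E13.25 sum for the 3 genes, and in single cells Try10 reached 100 CPM in 69 of 90 against 0 of 36. Such a separation of sums, here and below, is a description, and the share of all genes that show it is not given. Prss2 and Try5 were already present at E13.25, Prss2 at 27.2 to 387 CPM and Try5 at 0.494 to 243 CPM, and missed the threshold (adjusted p = 0.0983 and 0.342). These genes are close paralogs, and counts of one can hold reads of another.

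Other enzymes began from different levels. Amy2b (pancreatic amylase) was at 1856, 2938 and 1604 CPM against 1.37, 20.8, 3.18 and 32.4 CPM (log2 change 7.59 ± 1.14, adjusted p = 0.0233), and Rnase1 (pancreatic ribonuclease) at 500, 319 and 462 CPM against 0, 0, 4.29 and 0 CPM (8.82 ± 1.58, adjusted p = 0.0423). Ctrb1 rose from 5482, 3364, 3443 and 10598 CPM to the levels given above (3.80 ± 0.429, adjusted p = 0.00994). Pnliprp1 rose from 6114, 4936, 6754 and 3651 CPM (3.62 ± 0.202, adjusted p = 6.75e-04), Clps from 1499 to 5204 CPM (2.79 ± 0.381, adjusted p = 0.0159) and Cel from 446 to 1063 CPM to 3187, 3206 and 2904 CPM (2.32 ± 0.32, adjusted p = 0.0162). The sums of the ages did not overlap for any of them, which is again a description beside the test. Cela1 overlapped, at 1932, 2106 and 1917 CPM against 663 to 1946 CPM, and did not pass (1.15 ± 0.336, adjusted p = 0.142). Cpa1, on which cells of both ages were selected, was at 19385, 12804 and 17761 CPM against 15149, 11008, 15015 and 7670 CPM.

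**Figure D3:**
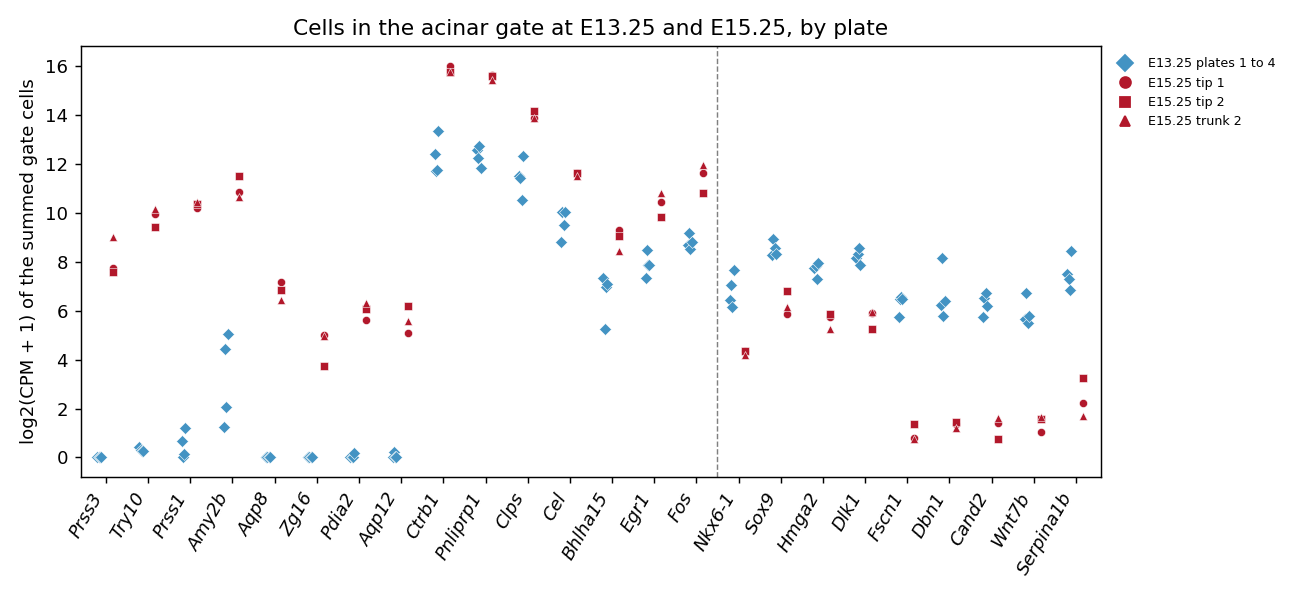
Levels of 15 genes that were higher and 9 that were lower at E15.25, in acinar gate cells, as log2(CPM + 1) of summed reads. Each point is 1 plate, and Try10 and Prss1 lie below 2 CPM on all 4 E13.25 plates and above 600 CPM on all 3 E15.25 plates.

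Granule and membrane genes appeared with the enzymes. Zg16, a zymogen granule lectin, was at 30.9, 12.3 and 30.2 CPM with 0 reads at E13.25 (at least 747-fold, adjusted p = 0.0236), and 16 of the 90 cells had it at 10 CPM or more. The water channel Aqp8 was at 142, 115 and 85.8 CPM with 0 reads at E13.25 (at least 3418-fold, adjusted p = 0.0065), and Aqp12, a pancreas-restricted aquaporin, was at 32.9, 72.7 and 46.2 CPM with 2 reads (ratio 1983, counting interval 549 to 16375, adjusted p = 0.012). The anion transporter gene Slc26a9 rose from at most 0.182 CPM to 123, 111 and 65.9 CPM (10.66 ± 0.839, adjusted p = 0.00615). With Slc30a2, a zinc transporter, they made 4 of 13 channels and transporters called, against 3 of 11 granule genes (Zg16, Clps and Tmed6). Adora1, an adenosine receptor, was called among 13 secretagogue and calcium genes, while Cckar, at 374, 352, 360 and 695 CPM at E13.25, missed (1.46 ± 0.288, adjusted p = 0.0544). None of 16 exocytosis genes passed, and Rab3d had 3.11 ± 0.649 (adjusted p = 0.0614).

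Of the 19 acinar transcription factors, Bhlha15 alone was called, at 632, 534 and 349 CPM against 161, 36.8, 123 and 134 CPM (2.59 ± 0.459, adjusted p = 0.041). Rbpjl and Ptf1a took part in the gate and are described only, Rbpjl at 657 to 994 CPM and Ptf1a at 76.2 to 345 CPM at E13.25. Both overlapped between the ages, since the trunk 2 sum of Rbpjl and the tip 2 and trunk 2 sums of Ptf1a lay within the E13.25 range. Xbp1, a factor of the unfolded protein response, was at 1098, 790 and 1048 CPM against 703 to 1282 CPM (0.51 ± 0.245, adjusted p = 0.375), and Nr5a2 had 0.39 ± 0.283 (adjusted p = 0.601).

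In the list of ER folding, translocation and stress genes 6 of 45 were called higher and none lower. Of the 45 estimates 42 were positive, beside 6884 of 14646 over all genes, and the median was 0.72. Pdia2, a disulfide isomerase of the pancreas, was at 47.6, 65.5 and 79.7 CPM with 2 reads at E13.25 (ratio 2608, counting interval 722 to 21538, adjusted p = 0.00652). Edem2, which directs misfolded glycoproteins to degradation, was at 855, 740 and 744 CPM against 301, 246, 190 and 139 CPM (2.27 ± 0.253, adjusted p = 0.00988). Sel1l, of the degradation complex, had 2.58 ± 0.323 (adjusted p = 0.0133) and Herpud1 2.33 ± 0.369 (adjusted p = 0.0281), and Atf4 and Ssr3 were also called. The chaperone Hspa5 (BiP), at 2382, 2373 and 1677 CPM against 1606 to 2526 CPM, did not pass (0.53 ± 0.209, adjusted p = 0.276). Of 22 Golgi and COPII genes, the coat genes Sec23b and Sec24d were called. In amino acid metabolism Gatm, the first enzyme of creatine synthesis, rose from 11.7 to 40.6 CPM to 205, 127 and 182 CPM (2.94 ± 0.455, adjusted p = 0.0249), and Asns (asparagine synthetase) and Cbs rose.

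Of 36 tip and multipotent progenitor genes, 4 were called lower and none higher, 7 had positive estimates and the median was -1.03. On the plain CPM scale the list's median was -1.18 in the acinar gate, -0.94 in Spp1-high cells and -0.24 in the mesenchymal gate. Of the 36 genes, 3, 6 and 14 were higher there in that order, and the medians of all genes were -0.30, -0.20 and -0.14. Sox9 was at 56.7, 112 and 69.2 CPM against 313, 482, 374 and 315 CPM (-1.81 ± 0.304, adjusted p = 0.0336). Nkx6-1 was at 19.3, 19.4 and 17 CPM against 87, 131, 70.1 and 202 CPM (-2.32 ± 0.441, adjusted p = 0.0499). Hmga2, a chromatin protein of fetal growth, was at 52.3, 57.1 and 37.5 CPM against 212, 225, 157 and 245 CPM (-1.68 ± 0.268, adjusted p = 0.0287), and Dlk1, a membrane relative of Notch ligands, at 58.6, 37.2 and 60.7 CPM against 281, 321, 376 and 236 CPM (-2.11 ± 0.276, adjusted p = 0.0145). The sums of the ages did not overlap for these 4, again as a description. Pdx1 had -1.61 ± 0.359 and missed (adjusted p = 0.072). Hes1, a Notch target, went the other way, at 607, 583 and 859 CPM against 182, 217, 169 and 407 CPM (1.90 ± 0.354, adjusted p = 0.047).

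The genes with the largest falls were of other kinds. Fscn1 (fascin, which bundles actin) was at 0.741, 1.57 and 0.667 CPM against 52.7, 88.2, 94.6 and 89.5 CPM (-5.95 ± 0.569, adjusted p = 0.00652), and Dbn1 (drebrin, an actin-binding protein) at 1.6, 1.72 and 1.27 CPM against 73.6, 288, 54 and 82.9 CPM (-5.94 ± 0.788, adjusted p = 0.0145). The ligand gene Wnt7b was at 1.07, 1.95 and 2.14 CPM against 50.2, 104, 44.3 and 53.8 CPM (-4.79 ± 0.591, adjusted p = 0.0133). Serpina1b (alpha-1 antitrypsin, -4.96 ± 0.657) and Rbp4 (retinol binding protein, -3.60 ± 0.51) also fell. Of 6 measured gut and liver epithelium genes, Afp (alpha-fetoprotein, -2.56 ± 0.383) alone was called lower, and 2 of the 6 had positive estimates. Vim (vimentin) fell from 340 to 554 CPM to 30.1, 80.4 and 52.5 CPM (-2.73 ± 0.377, adjusted p = 0.0162). Cldn6, a claudin of embryonic epithelium, fell from 1103 to 1741 CPM to 257, 282 and 243 CPM (-1.96 ± 0.192, adjusted p = 0.00663).

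Immediate early genes, transcription factors and other genes induced quickly by stimulation, were higher at E15.25 for 9 of 25, with 23 positive and a median of 2.71. Fos was at 3179, 1793 and 3953 CPM against 416, 578, 371 and 446 CPM (3.14 ± 0.302, adjusted p = 0.00652), Jun at 1925, 1106 and 1666 CPM against 318 to 479 CPM (2.49 ± 0.253, adjusted p = 0.0076) and Egr1 at 1386, 919 and 1806 CPM against 160 to 357 CPM (2.90 ± 0.344, adjusted p = 0.0123). In mesenchymal gate cells Fos was at 1140 ± 426 CPM (SD, n = 3) at E15.25 and 1096 ± 312 CPM (SD, n = 4) at E13.25. On the plain CPM scale the list's median change was 1.72 in the acinar gate, -0.04 in the mesenchymal gate and 0.64 in Spp1-high cells. The mitochondrial share given above moved the same way with age, and its part in these changes was not tested. Gstm1, Cat, Mt1 and Mt2, genes of detoxification and metal binding, were called higher among 23, with Gstm1 at 1035, 933 and 910 CPM against 224, 314, 169 and 233 CPM (2.45 ± 0.238, adjusted p = 0.00652).

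Some genes of other cell types also passed. Dcn (decorin, of mesenchyme) was at 5.26, 19.3 and 15.8 CPM against 0.0608 to 0.791 CPM (5.75 ± 1.09, adjusted p = 0.0493), while mesenchymal gate cells had 2024 ± 535 CPM (SD, n = 3) at E15.25 and 316 ± 136 CPM (SD, n = 4) at E13.25. Cpe, a prohormone-processing enzyme of endocrine cells, was at 194, 121 and 119 CPM against 11 to 37.6 CPM (2.94 ± 0.447, adjusted p = 0.0236), with 808 and 93.8 CPM in the mesenchymal gate. In the mesenchyme list 1 of 20 was called higher and 1 lower (Vim), and in the erythroid list 0 of 7, whose median was 3.11. The part of reads from other cells in these results was not tested.

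**Figure D4:**
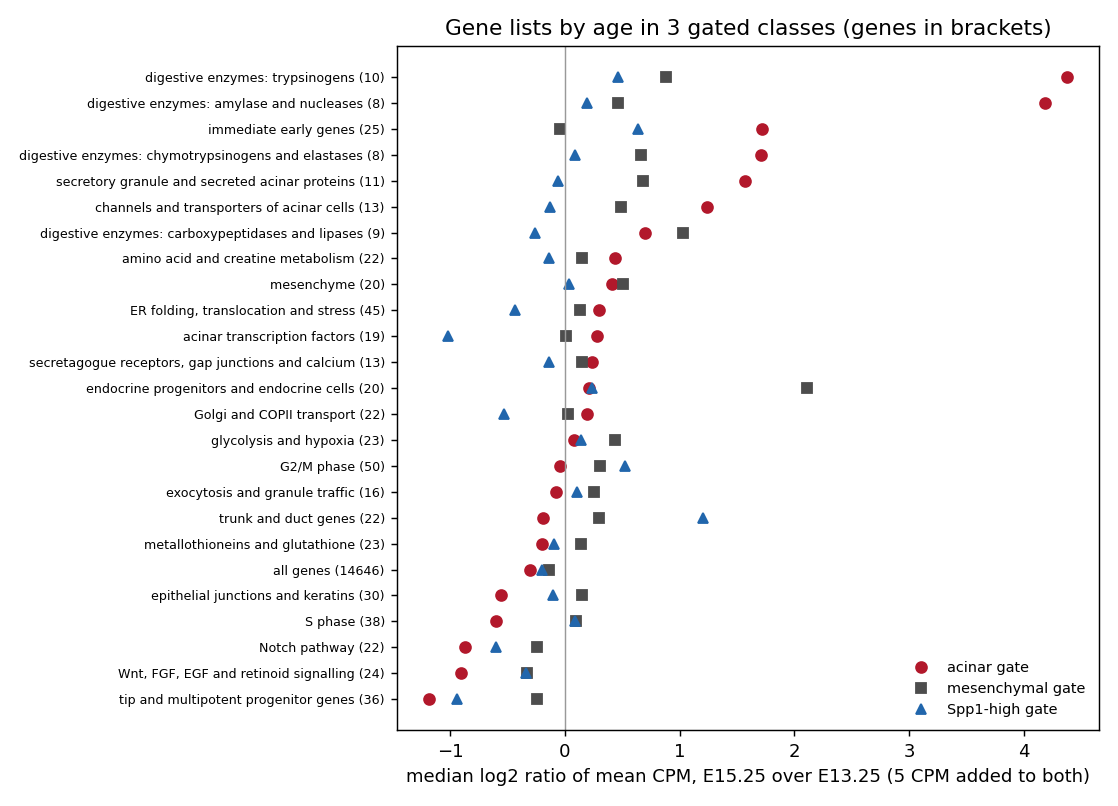
Median log2 ratio of E15.25 to E13.25 levels for each gene list, with 5 CPM added, in the acinar, mesenchymal and Spp1-high gates. Trypsinogens (4.37) and amylase and nucleases (4.18) lie farthest right in the acinar gate, immediate early genes lie at 1.72 there and -0.04 in the mesenchymal gate, and the medians of all genes are -0.30, -0.14 and -0.20.

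The age calls rested on few plates. Without tip 1, 2 genes were higher and 0 lower, and these were Try10 and Pnliprp1. Without tip 2 the counts were 32 and 10, and without trunk 2 they were 18 and 6. Without E13.25 plate 1, 2, 3 or 4 they were 83 and 51, 107 and 60, 89 and 48, and 117 and 52. Among plates with 40% or more of reads not aligned, which leave plate 4 as the single E13.25 sum and assume that it varies like the others, they were 57 and 15. DESeq2 called 663 higher and 670 lower, which included 219 of the 224 genes called by edgeR.

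The 2 tip sums were set against the trunk sum in a fit that takes the latter to be as variable as the rest. With 1 trunk plate, which shares bud 2 with tip 2, this does not answer whether the regions differ. No gene of 18684 passed, 195 had an unadjusted p under 0.05, and DESeq2 called 21 higher and 4 lower in the tip. For Ctrb1 and Ptf1a the trunk sum given above lay between the 2 tip sums, and for Pnliprp1 and Rbpjl below both.

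Age changes were then compared between the acinar and mesenchymal gates, each plate serving as a block. Of 19537 genes, 23 (0.118%) differed, and 2012 had an unadjusted p under 0.05. In 11 of the 23 the log2 change with age was more positive in the acinar gate than in mesenchyme, and in 12 it was more negative. Egr4, an immediate early gene, had the largest positive difference (9.20 on the log2 scale): gate cells had 129, 93.8 and 233 CPM at E15.25 and 0.418 to 24.3 CPM at E13.25, whereas mesenchymal cells had 4.22 ± 4.34 CPM (SD, n = 3) and 52.2 ± 28.8 CPM (SD, n = 4). Egr4 was unevenly spread, with a median of 2.64 CPM and a maximum of 1436 CPM over the 90 cells. Hmga2 (3.95 ± 0.469, adjusted p = 0.0489) was lower at E15.25 in both, and the gap was wider in mesenchyme, with 5.8 ± 4.29 CPM (SD, n = 3) against 274 ± 80.8 CPM (SD, n = 4). Jun and Srf (serum response factor) were also called with positive differences, of 3.30 and 3.63. On the other side, Igfbp4 (an insulin-like growth factor binding protein) was at 9.42, 14.9 and 18.6 CPM in the gate cells against 247, 315, 244 and 209 CPM, and 1820 ± 52.4 against 1626 ± 270 CPM in mesenchyme (-4.10, adjusted p = 0.0107). Fscn1 (-5.45), Dbn1 (-4.85) and Dlk1 (-2.55 ± 0.327, adjusted p = 0.0489) likewise fell more in the acinar gate. Try5 differed by -4.11, with 7.55 CPM in E15.25 mesenchymal cells, which is 1.29% of the acinar level. Against Spp1-high cells 0 of 18611 genes differed (edgeR, smallest adjusted p = 0.0974), 1452 had an unadjusted p under 0.05 and DESeq2 called 576 and 208. These calls rested on single plates. Without E13.25 plate 1, 2 or 3, tip 1 or tip 2, 0 genes were called in either direction, and without trunk 2 there were 0 positive and 1 negative. Without E13.25 plate 4 there were 11 and 16.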

How the data were processed

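Raw read counts per gene, not normalized, were deposited by the authors for each well, made with GSNAP and HTSeq 0.5.3p3 on mm10 per the submitters' processing notes. Beside 46078 genes they list 92 ERCC spike-ins and 5 HTSeq classes, which both stayed out of the totals. The annotation release and strand setting are not given in the sources used here. There were no molecular identifiers, so intervals and floors cover counting error only. Cells were kept with at least 100000 reads on genes, 1500 genes and at most 20% mitochondrial reads. No doublet caller was run. CPM was computed over gene reads. The gate and gene lists were chosen with earlier results of these data known. Reads were summed per plate with at least 5 gate cells and tested in edgeR 4.0.16 (R 4.3.3; TMM, filterByExpr, quasi-likelihood, Benjamini-Hochberg 0.05). DESeq2 1.42.0 was an alternative. Fits were also run on counts simulated from their own fitted means and dispersions, which cannot show whether that model suits these plates. Genes named are the 6 markers, the largest called changes per direction and called or abundant members of each list. Nr5a2, Prss2, Try5, Rab3d, Jun in the gate comparison and the cell counts per threshold were chosen after values were seen. Symbols were matched for 45143 genes, and coordinates and exon lengths came from GENCODE vM21 (GRCm38).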

Additional observations from a re-analysis of the deposited data

Results flagged for a closer look

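In 5 of 40 genes examined, 1 of the 4 E13.25 sums of gate cells stood apart from the others by more than Dixon's 95% critical value, which chance gives in about 1 in 20 groups. Cpb1 (carboxypeptidase B1) had a gap ratio of 0.944, with 34.2 CPM in plate 4 against 0, 0 and 1.9 CPM. Dbn1 had 0.876, with 288 CPM in plate 2, and Wnt7b had 0.841, with 104 CPM in plate 2. Hba-a1 (alpha globin) had 0.848, with 38.5 CPM in plate 4, and Fscn1 had 0.847, with 52.7 CPM in plate 1 below the other plates. For Dbn1, Wnt7b and Fscn1 the 3 E15.25 sums lay below all 4 E13.25 sums.

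In 12 named genes the age change differed between the acinar and mesenchymal gates by the test of the difference itself (edgeR). The difference in log2 change was 9.2 for Egr4, 8.15 for Thbs1 (thrombospondin 1), 5.87 for Timp3 (a metalloproteinase inhibitor), 4.73 for Dlc1, 3.95 for Hmga2 and 3.63 for Srf. It was -7.65 for St6galnac2, -5.58 for ccdc198, -5.45 for Fscn1, -4.85 for Dbn1, -4.11 for Try5 and -4.1 for Igfbp4. Thbs1 in gate cells was at 264, 51.8 and 540 CPM at E15.25 and 0.165 to 1.01 CPM at E13.25, with a median of 8.25 CPM and a maximum of 3676 CPM over the 90 cells, and mesenchymal cells held 436 and 250 CPM. The part of reads from mesenchymal cells in the gate cells' levels was not tested.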

How the results depend on the processing

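The count of genes higher and lower in the gate than in other E15.25 cells was 388 and 1140 at a 2-fold limit, 61 and 117 at 8-fold, and 209 and 884 with plates pooled (no replicate block). Leaving out 1 plate gave 151 to 160 higher and 425 to 640 lower. The age counts (144 and 80) became 233 and 122 with a looser gate, 8 and 0 with a stricter gate that left 2 E13.25 plates, 62 and 32 after removal of the 5% of cells richest in genes, 288 and 173 with all cells brought to an equal total, 663 and 670 in DESeq2, 51 and 23 with at least 10 cells per plate, and 57 and 15 among plates with 40% or more of reads not aligned, where the median of all genes moved to 0.30. Leaving out 1 plate gave 2 to 117 higher and 0 to 60 lower. The differences from mesenchyme (11 and 12) became 0 and 0 with the stricter gate or at least 10 cells, 11 and 26 after that removal, 25 and 31 with equal totals, 0 and 1 with DESeq2's size factors, 742 and 483 in DESeq2 and 52 and 43 with no replicate block. Without single plates they were 0 to 11 and 0 to 16. Those from Spp1-high cells (0 and 0) became 1 and 0 with the looser gate, 576 and 208 in DESeq2, 10 and 0 with no filter, 16 and 6 with no replicate block, and 0 to 2 and 0 to 1 without single plates. Tip against trunk gave 21 and 4 in DESeq2 and 0 in every edgeR setting, and could not be fitted without trunk 2. The cause of these changes was not tested. No paired analysis was possible because, between ages, replicate numbers name different pancreata and buds. Directions were checked for named or called genes in the comparisons with other E15.25 cells, with age and with mesenchyme, and none reversed in a setting checked. Single genes of the tip against trunk and Spp1-high comparisons were not checked. Over all pairs of a checked gene and a setting, the age call was kept in 813 and lost in 510. Try10 and Pnliprp1 kept it in all 17. Depth limits genes near the floor: a gene with 0 reads in the E13.25 gate cells has only a lower bound.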

Other observations

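Medians with age of 2 signalling lists were negative in the acinar gate, and on the plain CPM scale also in mesenchymal and Spp1-high cells. On that scale the Notch list had -0.87 in the acinar gate, -0.24 in mesenchymal gate cells and -0.60 in Spp1-high cells. The Wnt, FGF, EGF and retinoid list had -0.90, -0.33 and -0.34, and all genes had -0.30, -0.14 and -0.20. Of 22 Notch pathway genes tested with age, 1 was called higher (Hes1) and 1 lower, with a median of -0.74, and of 24 genes of Wnt, FGF, EGF and retinoid signalling, 0 were called higher and 2 lower, with a median of -0.85. Of 23 genes of glycolysis and hypoxia, 1 was called higher, Ndrg1, at 228, 156 and 272 CPM against 37.4, 56.5, 74.2 and 25.2 CPM (log2 change 2.60 ± 0.397, adjusted p = 0.0239).

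None of 38 S phase or 50 G2/M genes was called with age by edgeR, with medians of -0.20 and 0.40. Gate cells were spread over the plates' wells: 43 of 131 kept E15.25 cells in wells 1 to 48 and 47 of 130 in wells 49 to 96 were in the gate.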
